A study of Mus musculus with 12 samples.

Results

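Aldehyde dehydrogenases oxidise aldehydes to carboxylic acids with NAD(P)+ as cofactor. The Aldh1a enzymes turn retinaldehyde, made from vitamin A, into retinoic acid, which acts through nuclear receptors, while Aldh2 and Aldh3a2 remove acetaldehyde, lipid peroxidation aldehydes and long-chain fatty aldehydes. In mouse adipose tissue retinaldehyde is known to restrain fat cell differentiation, and Aldh1a1 is the enzyme most often linked with its removal there. The genes described here are the 6 members Aldh1a7, Aldh1a1, Aldh1a2, Aldh1a3, Aldh2 and Aldh3a2, out of 19480 genes named among 22104 transcript clusters (the probe groups that an array reads as 1 transcript). They were picked by symbol, and Aldh1a7 was put first because its signal was higher with the inhibitor. The inhibitor comparisons of all 6 genes are therefore given as a description with no test.

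The cells were 3T3-L1 adipocytes, a mouse preadipocyte line made to differentiate in culture, collected on day 8 of differentiation. The 4 treatments were alpha-linolenic acid (ALA, 50 µM) with a delta-6-desaturase inhibitor (5 µM), ALA alone, the inhibitor alone, and a control with ethanol and DMSO, each given from the start of differentiation. Every treatment had 3 arrays, 1 from each of passages 6, 7 and 8, so p-values measure the spread between cultures of 1 line and not between animals. All cells received a differentiation cocktail and then insulin (5 µg/ml). The labels name albumin (2%) for the ALA medium and the vehicles for the control, and do not say whether the other media were matched. The deposited signals are log2 values from RMA, a method that corrects background, normalizes arrays and summarises probes, so a difference of 1 is a doubling. Array medians lay between 6.14 and 6.27. Precision is set by having 3 arrays per treatment. The array of ALA at passage 7 stood apart, correlating at 0.976 to 0.987 with the other arrays, against 0.989 to 0.994 among the other 11. Results of the 6 genes that rest on it are given with and without it, and those of other genes only in part.

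The adipocyte label was checked against marker genes. The mean log2 signal of 16 mature adipocyte markers lay between 10.7 and 11.3 on every array. It lay between 9.39 and 9.94 for 14 preadipocyte and fibroblast markers, 12 of which were above the median of each array. For 9 macrophage markers it was 4.94 to 5.13, and for 8 endothelial markers 4.23 to 4.61. These means do not show how complete differentiation was. Fads2, the gene of delta-6-desaturase, averaged 12.63 ± 0.02 with ALA and inhibitor and 12.38 ± 0.03 with ALA, and 12.77 ± 0.04 with the inhibitor and 12.62 ± 0.04 in controls (log2, SD, n = 3 each). In bulk RNA, fewer cells of a type and less RNA per cell cannot be told apart.

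Aldh1a7 is a rodent paralogue of Aldh1a1, described as a poor enzyme for retinaldehyde. Both genes lie on chromosome 19, and RefSeq lists 0 genes between them. Their upstream sequences are shown because the genes are paralogues, and because both were higher with ALA and inhibitor than with ALA. They did not move together in other comparisons. Inhibitor minus control was 0.43 for Aldh1a7 and 0.05 for Aldh1a1, and ALA and inhibitor minus inhibitor was -0.16 and 0.31. Any part of the shared sequence in these differences was not tested. Each line gives the 250 bases before a transcription start, 5′ to 3′, from RefSeq (build GRCm38.p6). Aldh1a7 is chr19:20727557-20727806 on the minus strand, and Aldh1a1 is chr19:20601718-20601967 on the plus strand, the second of its 2 listed starts. Capitals mark the longest stretch that is the same in both.
Aldh1a7: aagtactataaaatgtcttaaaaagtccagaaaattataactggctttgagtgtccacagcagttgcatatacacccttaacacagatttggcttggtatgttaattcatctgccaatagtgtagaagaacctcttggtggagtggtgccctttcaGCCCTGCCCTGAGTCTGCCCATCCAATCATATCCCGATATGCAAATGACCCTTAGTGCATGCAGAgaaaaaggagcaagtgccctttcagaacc
Aldh1a1: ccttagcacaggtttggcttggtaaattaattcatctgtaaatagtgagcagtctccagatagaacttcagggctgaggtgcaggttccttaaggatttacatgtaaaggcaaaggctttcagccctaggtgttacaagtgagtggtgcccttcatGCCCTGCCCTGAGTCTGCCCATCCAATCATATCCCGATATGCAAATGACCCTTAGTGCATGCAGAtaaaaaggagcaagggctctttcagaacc

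Over these 250 bases 173 were identical between Aldh1a7 and Aldh1a1 (69.2%). The shared stretch of 65 bases ran from 94 to 30 bases before the start in both genes. Identity was 92% in the 125 bases nearest the start and 46.4% in the 125 farther away. Against the other Aldh1a1 start, 140 of the 250 bases were identical (56%), with no identical run longer than 5 bases. The shared stretch holds the octamer ATGCAAAT, 56 bases before the start in both, and a CCAAT box at 72 in both. ATGCAAAT, looked for on both strands after the sequences had been read, occurs in 526 of 32851 RefSeq mouse windows (1.6%), among them that of Aldh1a2 at 84 bases before the start. CCAAT is common and occurs in 33.8% of windows, also in those of Aldh1a2 and Aldh3a2. The antioxidant response core TGACNNNGC (10.2% of windows) was found in Aldh1a2 alone of the 5 windows of 4 members that were read. Direct repeats of the nuclear receptor half-site AGGTCA were in none of the 5, neither with the spacing bound by retinoic acid receptors (0.00913% of windows) nor with the one bound by PPARs (0.0335%). A match or its absence says only which letters this window holds. Aldh1a3 and Aldh2 had no window to read.

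**Figure D1:**
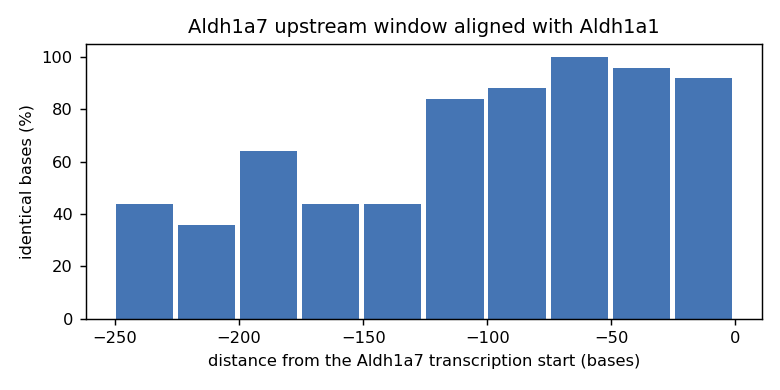
Share of identical bases (%) between the Aldh1a7 upstream window and that of the second Aldh1a1 start, in steps of 25 bases along the distance from the Aldh1a7 transcription start. Identity is 84% to 100% in the 5 steps nearest the start and 36% to 64% in the 5 farther ones.

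Aldh1a7 differed little between arrays of a treatment. With ALA and inhibitor its log2 signal was 9.76, 9.75 and 9.73 at passages 6, 7 and 8, and with ALA 9.48, 9.39 and 9.50. With the inhibitor alone it was 9.94, 9.89 and 9.89, and in controls 9.52, 9.34 and 9.58. Every array with the inhibitor was above every array without it, at 9.73 to 9.94 (median 9.83) against 9.34 to 9.58 (median 9.49). Among all clusters 0.231% had the 6 arrays with inhibitor wholly above the 6 without, and since Aldh1a7 was picked for this contrast, nothing is read from that share. The inhibitor minus control difference was 0.43 (SE 0.10), or 1.34-fold. The ALA and inhibitor minus ALA difference was 0.29 (SE 0.10), or 1.22-fold. In the same comparisons 188 and 1485 of 22104 clusters had a larger difference upwards. Nothing is read from these ranks either, for the same reason. Within passages 6, 7 and 8 the inhibitor minus control difference of Aldh1a7 was 0.41, 0.55 and 0.31, and the ALA and inhibitor minus ALA difference was 0.28, 0.36 and 0.22.

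The treatments ordered Aldh1a7 as inhibitor (9.91 ± 0.02), ALA with inhibitor (9.75 ± 0.02), control (9.48 ± 0.13) and ALA (9.46 ± 0.06), as log2 means with SD over 3 arrays. Inhibitor and ALA with inhibitor did not overlap, nor did ALA with inhibitor and control, while control and ALA did. Marker lists moved beside it. The mean of the 16 adipocyte markers ranged over 10.8 to 11.1 with ALA and inhibitor and 11.1 to 11.3 with ALA, and over 10.7 to 11.1 with the inhibitor and 11.03 to 11.27 in controls. Of those 16 markers, 13 were lower in the inhibitor minus control comparison and 12 in ALA and inhibitor minus ALA. The mean of 14 preadipocyte markers ranged over 9.41 to 9.79 with ALA and inhibitor and 9.63 to 9.94 with ALA, and over 9.39 to 9.78 with the inhibitor and 9.63 to 9.89 in controls. The 9 macrophage markers ranged over 4.97 to 5.11, 4.94 to 5.05, 4.95 to 5.09 and 5.01 to 5.13 in the same order of groups. The part of these shifts in the Aldh1a7 difference was not tested.

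**Figure D2:**
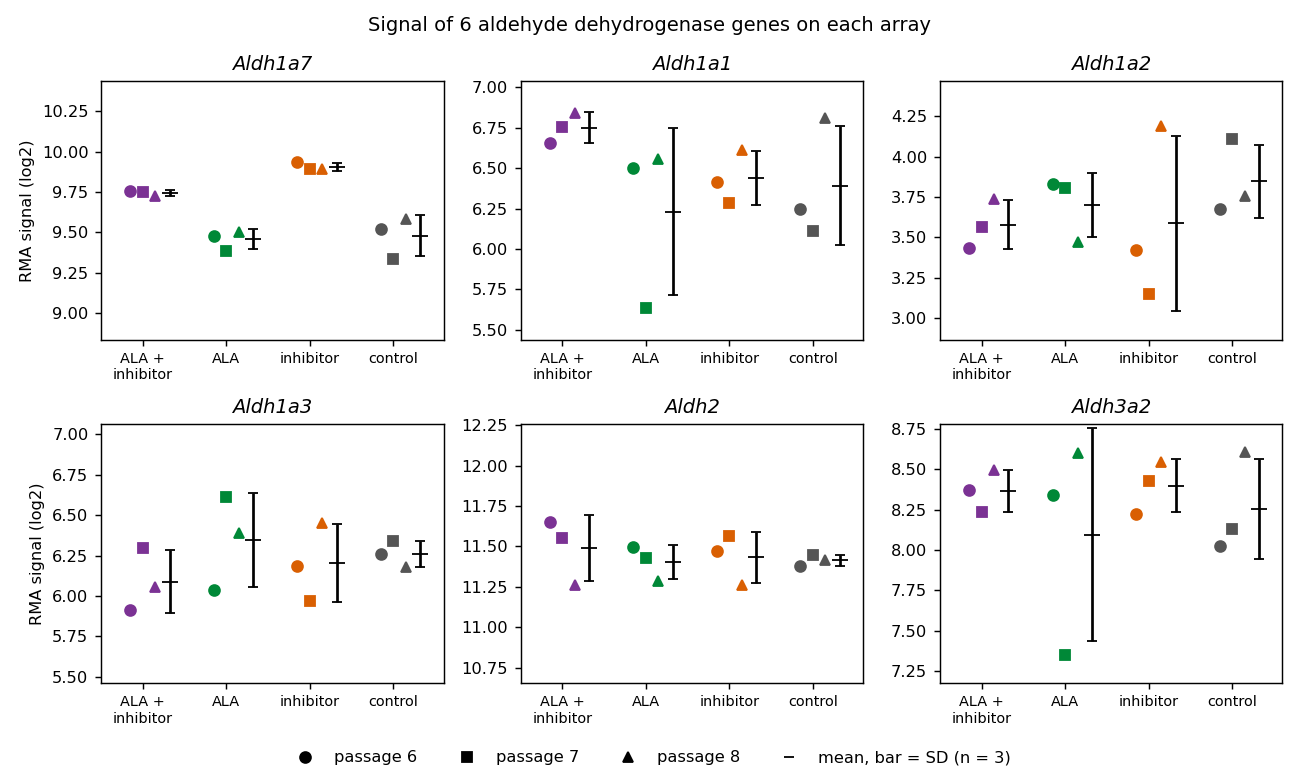
RMA signal (log2) of the 6 genes on each of the 12 arrays by treatment, with the marker shape giving the passage and the bar the mean ± SD of 3 arrays. All Aldh1a7 points with inhibitor are at 9.73 or above, and all points without it at 9.58 or below, while Aldh1a1 and Aldh3a2 have a low point with ALA at passage 7 (5.64 and 7.35).

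Aldh1a1, the main cytosolic retinaldehyde dehydrogenase of many mouse tissues, was more variable between arrays of a treatment. Its log2 signal was 6.65, 6.76 and 6.84 with ALA and inhibitor at passages 6, 7 and 8, and 6.50, 5.64 and 6.55 with ALA. It was 6.41, 6.28 and 6.61 with the inhibitor and 6.25, 6.11 and 6.81 in controls. The ALA and inhibitor arrays lay above all ALA arrays and all inhibitor arrays, and overlapped the controls. The ALA and inhibitor minus ALA difference was 0.52 (SE 0.23), and 0.22 without the ALA array of passage 7, where the signal was lowest. The inhibitor minus control difference was 0.05 (SE 0.23), with passages at 0.16, 0.17 and -0.19. The order was ALA with inhibitor (6.75 ± 0.09), inhibitor (6.44 ± 0.17), control (6.39 ± 0.37) and ALA (6.23 ± 0.52). From inhibitor downwards each neighbour overlapped the next. Because Aldh1a1 and Aldh1a7 are paralogues, their probes may each read some of the other transcript. The identity of the upstream windows does not measure that of the transcripts. The array files used here give no probe sequences to check this.

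Aldh1a2, the retinaldehyde dehydrogenase best known from the embryo, was below the array median on all 12 arrays. Its signal was 3.44, 3.56 and 3.74 with ALA and inhibitor, 3.83, 3.81 and 3.47 with ALA, 3.42, 3.15 and 4.19 with the inhibitor, and 3.68, 4.11 and 3.75 in controls. The groups overlapped in every treatment comparison, and the arrays with inhibitor alone spread most (3.59 ± 0.54). The order was control (3.85 ± 0.23), ALA (3.70 ± 0.20), inhibitor (3.59 ± 0.54) and ALA with inhibitor (3.58 ± 0.15), each overlapping the next. The inhibitor minus control difference was -0.26 (SE 0.23) and the ALA and inhibitor minus ALA difference -0.12 (SE 0.23).

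Aldh1a3, the third retinaldehyde dehydrogenase, lay close to the array medians and above them on 7 of 12 arrays. Its signal was 5.91, 6.30 and 6.06 with ALA and inhibitor, 6.04, 6.61 and 6.39 with ALA, 6.19, 5.97 and 6.45 with the inhibitor, and 6.26, 6.34 and 6.18 in controls. No group stood clear of another. The order was ALA (6.35 ± 0.29), control (6.26 ± 0.08), inhibitor (6.20 ± 0.24) and ALA with inhibitor (6.09 ± 0.20), each overlapping the next. The differences were -0.06 (SE 0.17) for inhibitor minus control and -0.26 (SE 0.17) for ALA and inhibitor minus ALA, the second being -0.12 without the ALA array of passage 7.

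Aldh2, the mitochondrial enzyme that oxidises acetaldehyde and 4-hydroxynonenal, was above the array median on all 12 arrays and varied little. Its signal was 11.65, 11.55 and 11.26 with ALA and inhibitor, 11.49, 11.43 and 11.29 with ALA, 11.47, 11.57 and 11.26 with the inhibitor, and 11.38, 11.45 and 11.41 in controls. The order was ALA with inhibitor (11.49 ± 0.20), inhibitor (11.43 ± 0.16), control (11.41 ± 0.04) and ALA (11.40 ± 0.11), with all neighbours overlapping. The differences were 0.02 (SE 0.13) for inhibitor minus control and 0.09 (SE 0.13) for ALA and inhibitor minus ALA.

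Aldh3a2 encodes the fatty aldehyde dehydrogenase of the endoplasmic reticulum, the enzyme lacking in Sjögren-Larsson syndrome in people. Its signal was 8.37, 8.23 and 8.49 with ALA and inhibitor, 8.34, 7.35 and 8.60 with ALA, 8.22, 8.43 and 8.54 with the inhibitor, and 8.03, 8.13 and 8.61 in controls. The groups overlapped in all 4 treatment comparisons. The order was inhibitor (8.40 ± 0.16), ALA with inhibitor (8.37 ± 0.13), control (8.25 ± 0.31) and ALA (8.10 ± 0.66), each overlapping the next. The ALA and inhibitor minus ALA difference was 0.27 (SE 0.26) with all arrays and -0.10 without the ALA array of passage 7. The inhibitor minus control difference was 0.14 (SE 0.26).

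Counted together, the groups did not overlap for 1 of the 6 genes in inhibitor minus control (Aldh1a7, higher, beside 5.88% of all clusters higher and 4.97% lower) and for 2 of 6 in ALA and inhibitor minus ALA (Aldh1a7 and Aldh1a1, higher, beside 4.75% higher and 6.85% lower). Both counts come from contrasts used to choose the genes. Limma with Benjamini-Hochberg adjustment over all clusters called 0% of them at an adjusted p under 0.05 in either comparison. At an unadjusted p under 0.05 it had 4.32% in inhibitor minus control and 7.27% in ALA and inhibitor minus ALA, and at one under 0.01 it had 0.855% and 1.47%.

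Whether ALA itself moved these genes was asked with and without the inhibitor. These comparisons share arrays with the inhibitor comparisons, the control and ALA arrays in ALA minus control, and the inhibitor arrays in ALA and inhibitor minus inhibitor. Since Aldh1a7 was chosen on those arrays, its values are given here with no test. Limma called 0 of the 5 other genes, and 0% of all clusters, in each comparison. At an unadjusted p under 0.05 there were 0 of 5 in each, beside 3.41% and 3.56% of all clusters (0.525% and 0.728% under 0.01). ALA minus control gave 0 of 6 genes with groups apart, beside 3.86% of clusters higher and 2.91% lower. Aldh1a7 differed by -0.02 in ALA minus control (SE 0.10). The other members lay between -0.16 (Aldh1a1 and Aldh3a2) and 0.09 (Aldh1a3), each with a limma adjusted p of 1.00. Without the ALA array of passage 7, Aldh1a1 was at 0.14, Aldh1a3 at -0.046, Aldh3a2 at 0.21 and Aldh1a7 at 0.011 in that comparison, so the sign of these 4 changed with 1 array.

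On top of the inhibitor, Aldh1a7 was lower and Aldh1a1 higher with ALA, and Aldh1a1 did not pass the test. The arrays of Aldh1a7 did not overlap, at 9.73 to 9.76 with ALA and inhibitor against 9.89 to 9.94 with the inhibitor, beside 4.91% of clusters lower in this way. The difference was -0.16 (SE 0.10), and -0.18, -0.14 and -0.17 within passages 6, 7 and 8. The arrays of Aldh1a1 did not overlap either, at 6.65 to 6.84 against 6.28 to 6.61, beside 4.82% of clusters higher in this way. Its difference was 0.31 (SE 0.23, 95% interval -0.19 to 0.82, unadjusted p = 0.204 and adjusted p = 1.00 by limma), and 0.24, 0.47 and 0.23 within passages. The other four were between -0.11 (Aldh1a3) and 0.06 (Aldh2).

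Whether the inhibitor difference depended on ALA was asked with the interaction, the ALA and inhibitor minus ALA difference less the inhibitor minus control difference. For Aldh1a7 it was -0.14 (SE 0.15), given with no test. Among the others it was 0.47 for Aldh1a1 (SE 0.33, unadjusted p = 0.178, adjusted p = 1.00 by limma) and 0.17 without the ALA array of passage 7. It was 0.14 for Aldh1a2, -0.20 for Aldh1a3, 0.07 for Aldh2 and 0.13 for Aldh3a2. Without that array Aldh3a2 turned to -0.25 and Aldh1a3 was at -0.068. Limma called 0 of these 5 genes and 0% of clusters, with 0 of 5 and 3.42% at an unadjusted p under 0.05 (0.638% under 0.01).

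**Figure D3:**
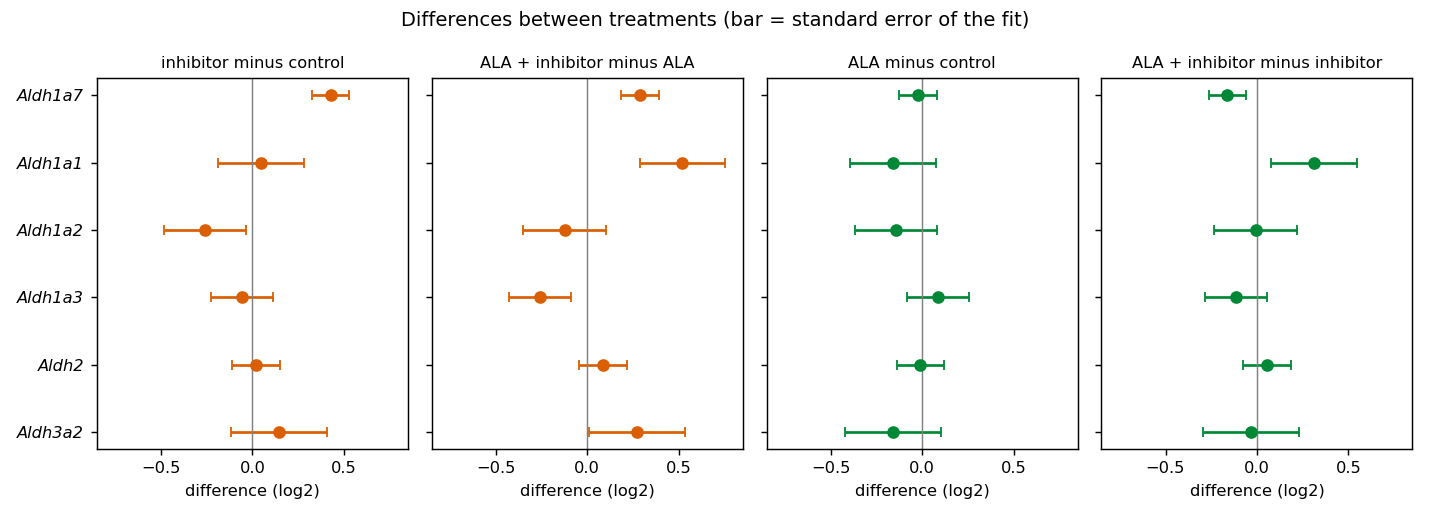
Log2 difference with the standard error of the fit for the 6 genes in inhibitor minus control, ALA and inhibitor minus ALA, ALA minus control, and ALA and inhibitor minus inhibitor. Aldh1a7 is at 0.43 and 0.29 in the inhibitor panels and at -0.02 and -0.16 in the ALA panels, while Aldh1a1 is at 0.52 and 0.31 in the panels where ALA and inhibitor is the first group.

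Passage number divides the arrays independently of treatment, and each passage holds every treatment. The 4 arrays of a passage are its 4 treatments. Treatment is in the model, so p-values between passages measure the spread left among arrays after passage and treatment are both fitted. Passage number cannot be told apart from anything else that the arrays of a passage shared. Limma with treatment in the model called 0 of the 6 genes between passages 8 and 6, beside 1.91% of all clusters, and 0 of 6 and 0% between passages 7 and 6. At an unadjusted p under 0.05 there were 0 of 6 in both, beside 14.6% and 9.29% of clusters (5.95% and 2.09% under 0.01). The arrays of passages 7 and 6 overlapped for all 6, beside 1.84% of clusters wholly higher and 2.43% wholly lower. Aldh1a7 averaged 9.68 ± 0.17 at passage 8 and 9.67 ± 0.21 at passage 6 (SD, n = 4), a difference of 0.00 (SE 0.08). Its spread within a passage is the spread between treatments.

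Aldh3a2 was the only one of the 6 whose passage 8 arrays were all above its passage 6 arrays, at 8.49 to 8.61 against 8.03 to 8.37, beside 7.13% of clusters, and none of the 6 had all of them below, beside 5.35%. The difference was 0.32 (SE 0.19, adjusted p = 0.472 by limma). At passage 7 it ranged over 7.35 to 8.43, the low end being the ALA array. Aldh2 was the only one lower at passage 8, averaging 11.30 ± 0.07 against 11.50 ± 0.11 at passage 6, with overlapping arrays and a difference of -0.20 (SE 0.09, unadjusted p = 0.0544, adjusted p = 0.354 by limma). Its controls were 11.41 at passage 8 and 11.38 at passage 6, unlike the other treatments, where passage 8 had the lowest value. Aldh1a1 was at 0.25 in passage 8 minus passage 6 (adjusted p = 0.495 by limma), Aldh1a2 at 0.20 and Aldh1a3 at 0.17.

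**Figure D4:**
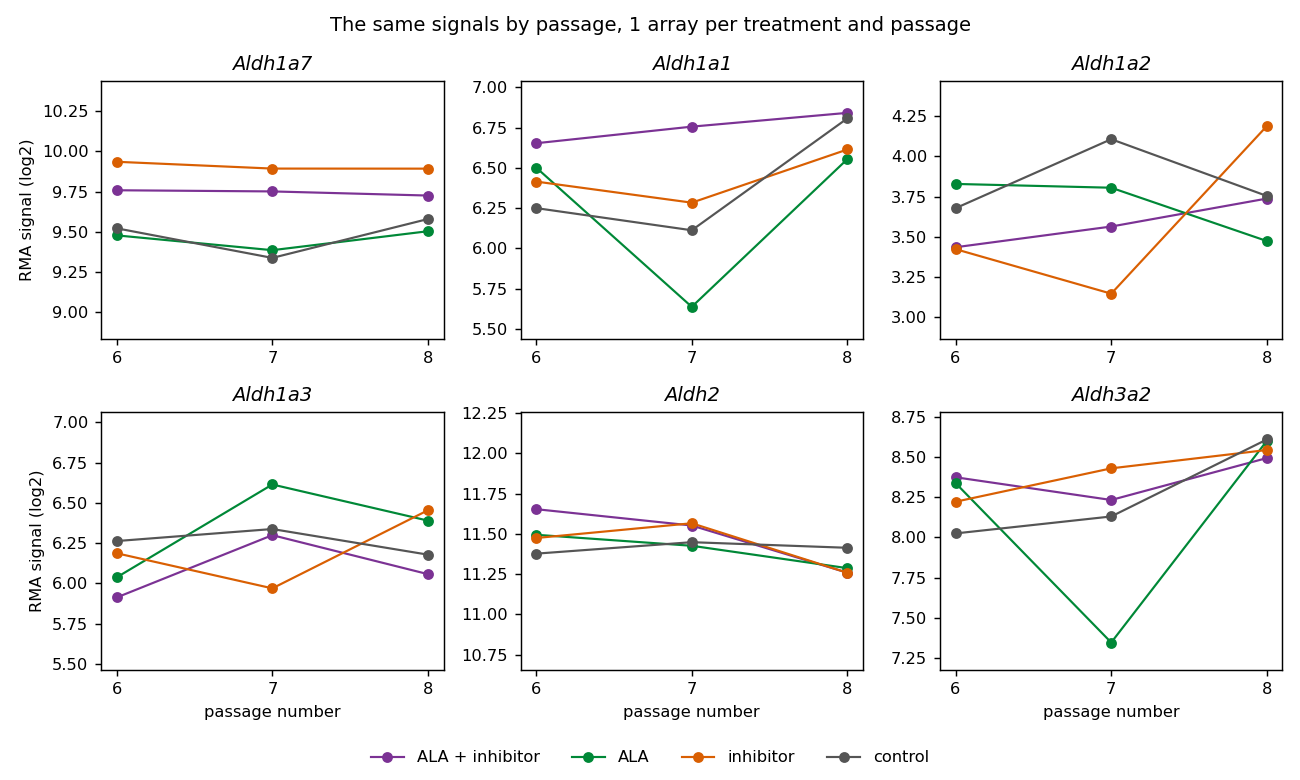
RMA signal (log2) of the 6 genes against passage number (6, 7, 8), 1 line per treatment and 1 array per point. The Aldh1a7 lines with inhibitor stay above those without at each passage, the Aldh3a2 points at passage 8 lie within 8.49 to 8.61, and the ALA line of Aldh1a1 and Aldh3a2 dips at passage 7.

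The other 15 mouse aldehyde dehydrogenase genes on the array did not share 1 direction with the inhibitor. In inhibitor minus control 9 were higher and 6 lower (median 0.02), beside 49.2% of all clusters above 0 and 50.8% below (median -0.003). In ALA and inhibitor minus ALA 7 were higher and 8 lower (median -0.04), beside 46.6% of all clusters above 0 and 53.4% below (median -0.02). Limma called 0 of 15 in both, with 1 and 3 at an unadjusted p under 0.05, beside 4.32% and 7.27% of all clusters. Aldh3b2, a fatty aldehyde dehydrogenase of lipid droplets in mice, was lower on every array with inhibitor. It was at 7.06, 7.25 and 7.49 with ALA and inhibitor and 7.65, 7.68 and 7.81 with ALA, and at 7.03, 7.27 and 7.50 with the inhibitor and 7.68, 7.82 and 7.92 in controls. Its differences were -0.54 (SE 0.15) for inhibitor minus control and -0.44 (SE 0.15) for ALA and inhibitor minus ALA. Among all clusters 0.33% had their 6 arrays with inhibitor wholly below the 6 without, and since Aldh3b2 was named for its inhibitor difference, nothing is read from that share. Aldh1l2, the mitochondrial 10-formyltetrahydrofolate dehydrogenase, was at 0.29 and 0.42 in the same comparisons (SE 0.19), and its cytosolic relative Aldh1l1 at -0.35 and -0.23 (SE 0.24). Aldh16a1 was at -0.23 and -0.31 (SE 0.16). In ALA minus control, 7 of the 15 were higher and 8 lower (median -0.10), beside 52.2% of clusters above 0 and 47.8% below (median 0.01), and limma called none.

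**Figure D5:**
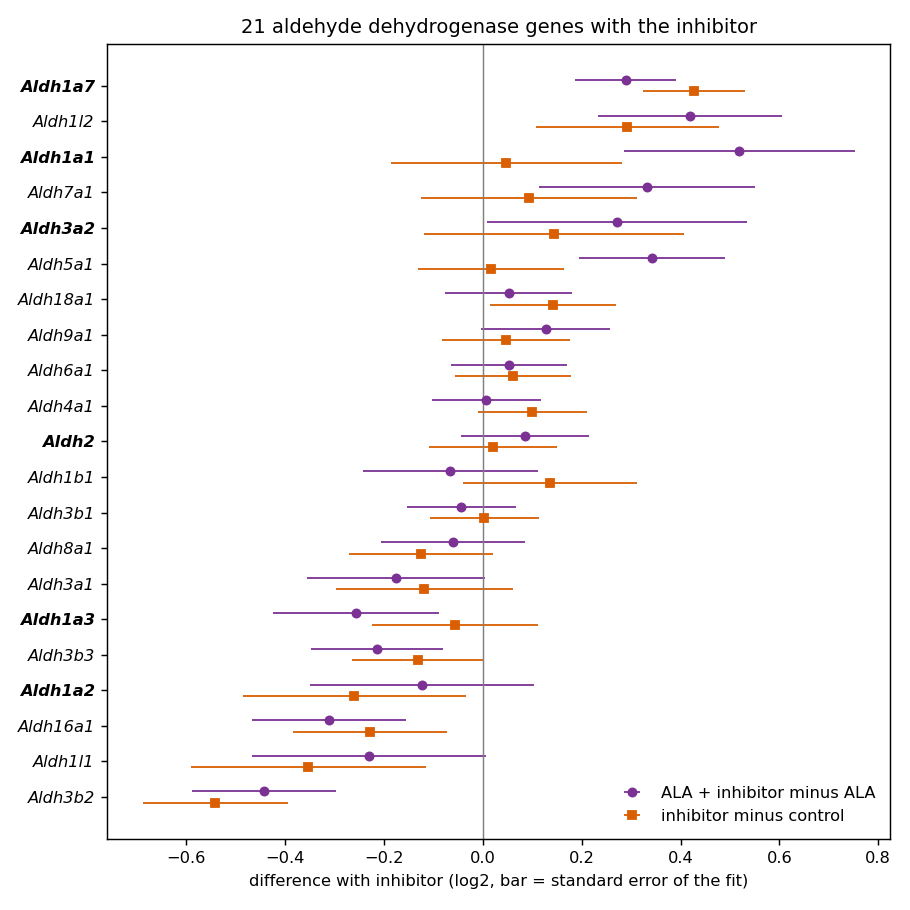
Log2 difference with inhibitor, with the standard error of the fit, for 21 aldehyde dehydrogenase genes in ALA and inhibitor minus ALA (circles) and inhibitor minus control (squares), ordered by the mean of both, the 6 genes described here in bold. Aldh1a7 is at the top (0.29 and 0.43), just above Aldh1l2 (0.42 and 0.29), and Aldh3b2 is at the bottom (-0.44 and -0.54). Aldh1a7 was picked for being higher with the inhibitor, so nothing is read from its rank.

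Enzymes before the Aldh1a step, which turn retinol into retinaldehyde or back, were in the majority lower with the inhibitor. Of 15 measured, 14 were lower in inhibitor minus control (median -0.14), beside 50.8% of all clusters, and 10 in ALA and inhibitor minus ALA (median -0.09), beside 53.4%. Of the marker genes, 13 of 16 for adipocytes and 13 of 14 for preadipocytes were lower in inhibitor minus control, and 12 of 16 and 12 of 14 in ALA and inhibitor minus ALA. Their part in the lower values was not tested. Limma called none of the 15, with 1 in each at an unadjusted p under 0.05, beside 4.32% and 7.27% of all clusters. Adh1, an alcohol dehydrogenase that also takes retinol, was at -0.31 and -0.51 (SE 0.25) in these comparisons, Dhrs4 at -0.29 and -0.28 (SE 0.17), and Adh7 at -0.21 and -0.35 (SE 0.23). Rdh11, a retinaldehyde reductase, was higher at 0.26 and 0.23 (SE 0.12). Its signal was 8.71 ± 0.05 with ALA and inhibitor and 8.47 ± 0.09 with ALA, and 8.88 ± 0.12 with the inhibitor and 8.62 ± 0.15 in controls (SD, n = 3).

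Retinoid uptake, storage and carrier genes were lower with the inhibitor in 9 of 14 (median -0.18) in inhibitor minus control. In ALA and inhibitor minus ALA 12 of 14 were lower (median -0.20, or 11 of 14 and -0.08 without the ALA array of passage 7). Of all clusters 50.8% and 53.4% were below 0 in these comparisons. Limma called 0 of the 14, with 0 and 1 at an unadjusted p under 0.05, beside 4.32% and 7.27% of clusters. Most adipocyte and preadipocyte markers were lower too, and their part was not tested. Bco1, which cleaves beta-carotene to retinaldehyde, was at -0.28 and -0.37 (SE 0.18). Fabp5, a fatty acid carrier that also binds retinoic acid, was at 0.30 and 0.25 (SE 0.17), and the retinol transporter Stra6 at 0.09 and -0.29 (SE 0.13).

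Of 7 retinoid receptor and partner genes, 2 were higher and 5 lower in inhibitor minus control (median -0.03), and 3 were higher and 4 lower in ALA and inhibitor minus ALA (median -0.06). Of all clusters 50.8% and 53.4% were below 0 in these comparisons. Limma called 0 of the 7, with 1 in each at an unadjusted p under 0.05, beside 4.32% and 7.27% of clusters. Rxrg, a retinoid X receptor, was lower on every array with inhibitor, at 5.07 to 5.59 with ALA and inhibitor against 5.85 to 6.02 with ALA, and at 5.48 to 5.65 with the inhibitor against 6.00 to 6.16 in controls. Its differences were -0.53 and -0.57 (SE 0.14), on a signal below the median of each array. Among all clusters 0.33% had their 6 arrays with inhibitor wholly below the 6 without. The inhibitor values of Rxrg were singled out after they had been seen, so nothing is read from that share. The adipocyte receptor Pparg was at -0.06 and -0.20 (SE 0.10). Genes known to respond to retinoic acid, some of which are also in the lists above, were lower in 18 of 23 (median -0.09) and 14 of 23 (median -0.05). Of all clusters 50.8% and 53.4% were below 0. Limma called 0 of the 23, with 0 and 1 at an unadjusted p under 0.05, beside 4.32% and 7.27% of clusters. Most adipocyte and preadipocyte markers were lower too, and their part was not tested. Sox9, which is also in the preadipocyte list, was at -0.39 and -0.37 (SE 0.22) and Pmepa1 at -0.41 and -0.11 (SE 0.23).

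Enzymes outside the family that also clear lipid aldehydes were higher in 12 of 17 (median 0.06) in inhibitor minus control. In ALA and inhibitor minus ALA 9 of 17 were higher (median 0.10, or 8 of 17 and 0.00 without the ALA array of passage 7). Of all clusters 49.2% and 46.6% were above 0 in these comparisons, and 50.8% and 53.4% below. Limma called 0 of the 17, with 0 and 1 at an unadjusted p under 0.05, beside 4.32% and 7.27% of clusters. Adh5, which oxidises formaldehyde bound to glutathione, was at 0.06 and 0.39 (SE 0.12). Of 14 genes of the ether lipid and sphingosine routes that make fatty aldehydes, 3 were higher and 11 lower in inhibitor minus control (median -0.03), and 8 were higher and 6 lower in ALA and inhibitor minus ALA (median 0.01, or 6 higher, 8 lower and -0.05 without the ALA array of passage 7). Limma called 0, with 0 and 1 at an unadjusted p under 0.05. The shares of all clusters given for the lipid aldehyde enzymes stand beside these 14 genes too. Tmem86a, a lysoplasmalogenase, was at -0.17 and -0.45 (SE 0.14), and the acid ceramidase gene Asah1 at 0.10 and 0.33 (SE 0.25). Agps, an enzyme of ether lipid synthesis, was at 0.17 and 0.26 (SE 0.15), and Far1, a fatty acyl reductase, at -0.02 and 0.39 (SE 0.28).

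In the ALA comparisons limma called 0 genes of these lists, with adjusted p = 1.00 throughout. Stra6 was at 0.32 and Rdh10, a retinol dehydrogenase, at -0.28 in ALA minus control. In ALA and inhibitor minus inhibitor Rdh14 was at 0.36 and the reductase Far2 at -0.54, on a mean signal of 4.54, below the array medians. The 3 retinoic acid hydroxylase genes were below the median on every array. In ALA minus control Cyp26c1 was at 0.48 (SE 0.19), Cyp26a1 at -0.03 and Cyp26b1 at -0.19, and limma called 0 of them. These values lean on the ALA array of passage 7, where the mean of the 3 genes was 5.71. It was 5.16 and 5.17 on the ALA arrays of passages 6 and 8. With ALA, Cyp26a1 ranged over 4.33 to 5.56 and Cyp26c1 over 5.30 to 5.91. Their differences without that array are not given here.

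Between the arrays of passages 8 and 6 some neighbours in the pathway did pass the test. That test cannot tell passage number from anything else the arrays of a passage shared. Adh1 rose by 0.64 (adjusted p = 0.0286 by limma), averaging 9.83 ± 0.21 at passage 8 and 9.19 ± 0.19 at passage 6, and Adh7 rose by 0.58 (adjusted p = 0.0235), so 2 of 15 retinol enzymes were called, beside 1.91% of all clusters. Sox9 rose by 0.55 (adjusted p = 0.0378), 1 of 23 retinoic acid responsive genes. Among 17 lipid aldehyde enzymes 2 fell, Cbr1 by 0.87 (adjusted p = 0.00737) and Cbr3 by 0.87 (adjusted p = 0.0131), both carbonyl reductases. Cbr1 averaged 9.24 ± 0.06 at passage 8 and 10.11 ± 0.13 at passage 6 (SD, n = 4). Leaving out 1 array at a time kept the call of Cbr1 in all 12 fits. Cbr3 lost its call in 4 of them, without ALA and inhibitor at passages 6 or 8, ALA at passage 8 or control at passage 6 (adjusted p = 0.0526 to 0.0627 by limma). Adh1 and Adh7 lost theirs in 8 each (up to 0.117 and 0.105), among them all 7 fits that lacked an inhibitor, ALA, or ALA and inhibitor array of passage 6 or 8 or the control of passage 6. The remaining fit lacked the control of passage 7 for Adh1 and that of passage 8 for Adh7. Sox9 kept its call in 2, without ALA at passage 7 or 8, and reached 0.151 otherwise. Without the ALA array of passage 7, where 593 of 22104 clusters were called, 3 of 23 retinoic acid responsive genes were called, with Hoxa5 at 0.43 and Egr1 at 0.54 beside Sox9, and 4 of 17 lipid aldehyde enzymes, with Akr1c14 at 0.46 and Akr7a5 at -0.40 beside Cbr1 and Cbr3. Beside these, 15 of 16 adipocyte markers and 13 of 14 preadipocyte markers were higher at passage 8 with all arrays. There 47.1% of all clusters were above 0 and 52.9% below. Limma called 3 of those 16 and 5 of those 14, Sox9 among the 5, beside 1.91% of all clusters. The part of these markers in the differences above was not tested.

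Genes whose pattern over the 12 arrays was most like that of Aldh1a7, among 10038 genes above the median cluster signal, were Zcchc4 (r = 0.92), Emc1 (0.91), Fdps (0.89), Lss (0.89) and Pdcd6 (0.88). Without the ALA array of passage 7 these correlations were 0.87 to 0.91. Fdps and Lss encode farnesyl diphosphate synthase and lanosterol synthase of the cholesterol pathway. Lss had 11.04 ± 0.08 with ALA and inhibitor and 10.73 ± 0.12 with ALA. It had 11.22 ± 0.07 with the inhibitor and 10.88 ± 0.07 in controls, the order seen for Aldh1a7. Zcchc4, Fdps and Pdcd6 had that order too, and Emc1 had it except that ALA (8.98) was just above control (8.97). Since Aldh1a7 was picked for its inhibitor difference, nothing is read from which genes follow it. For Aldh1a1 the closest were Cir1 (0.96), Gabpb2 (0.94), Cul5 (0.94), Ifi27 (0.93) and Rspry1 (0.93), and 0.83 to 0.92 without that array. Arrays in these correlations share treatments, passages and processing, so they are descriptions only.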

How the data were processed

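Total RNA (100 ng, integrity number above 8.9 per the labels) from 12 cultures was hybridised to 1-colour arrays. The deposited values are log2 signals per transcript cluster from RMA by the authors, as the submitters' processing notes name it. The annotation named 19509 clusters with 1 gene and left 2595 unnamed. The 29 further clusters of a gene were set aside for the one with the highest mean, and each of the 6 genes had 1 cluster. Treatments were compared with limma 3.58.1 (R 4.3.3), lmFit and eBayes on all 22104 clusters and 12 arrays, 1 coefficient per treatment, two-sided, Benjamini-Hochberg over all clusters, called at 0.05. There were 8 residual degrees of freedom, 6 in the passage model, which kept treatment. The test was tried on simulated data first.

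Members and lists were chosen with earlier results of these data known. Named from each list were up to 4 genes with the smallest p in an ALA comparison, up to 4 with the largest mean absolute difference over both inhibitor comparisons among genes above the array median, and those called between passages. The 5 genes most like Aldh1a7 and Aldh1a1 were taken by Pearson r.

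Passage numbers are shared by the treatments. Deviations of same-passage arrays correlated above 0.1 at each passage for ALA and inhibitor against ALA (0.163, 0.163 and 0.235) and not for inhibitor against control (0.194, 0.0781 and 0.363). Alternatives were 12 fits without 1 array and 8 others: array weights, an intensity trend, quantile normalization, arrays centred on their medians, no dimmest 30% of clusters, passage as a replicate block, only the 6 arrays compared, and treatment left out of the passage model. Promoter windows are RefSeq's.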

Additional observations from a re-analysis of the deposited data

How the results depend on the processing

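With passage as a replicate block limma called 0 clusters in each treatment comparison, so the pairing changed no call. The block cannot move the differences themselves, since each passage holds 1 array of each treatment. Those of Aldh1a7 stay at 0.43 for inhibitor minus control and 0.29 for ALA and inhibitor minus ALA by design. Array weights turned the sign of Aldh1a7 (0.023), Aldh1a1 (0.13), Aldh1a3 (-0.011) and Aldh3a2 (0.18) in ALA minus control, of Aldh1a2 (0.13) in ALA and inhibitor minus inhibitor, of the Aldh3a2 interaction (-0.23), and of Aldh2 (0.0029) in passage 7 minus passage 6. Quantile normalization turned Aldh1a7 (-0.0094) in passage 8 minus passage 6 and Aldh2 (0.028) in passage 7 minus passage 6. Each of these was uncalled before and after, and the cause was not tested. The 423 clusters called in passage 8 minus passage 6 were 690 with array weights, 1163 with an intensity trend, 719 without the dimmest 30% of clusters, and 140 (without the inhibitor array of passage 8) to 593 (without the ALA array of passage 7) with 1 array left out. The 0 called in passage 7 minus passage 6 were 10 with an intensity trend. Treatment left out of the passage model ended the calls of Adh1 (adjusted p = 0.101), Adh7 (0.05) and Sox9 (0.127) by limma, and quantile normalization that of Sox9 (0.0533).

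Leaving out 1 array at a time, the Aldh1a7 difference ranged over 0.36 to 0.48 in inhibitor minus control and 0.25 to 0.31 in ALA and inhibitor minus ALA. The inhibitor minus control difference ranged over -0.091 to 0.26 for Aldh1a1, -0.56 to -0.040 for Aldh1a2, -0.18 to 0.061 for Aldh1a3, -0.047 to 0.11 for Aldh2 and 0.029 to 0.32 for Aldh3a2. For Aldh3a2 in ALA and inhibitor minus ALA the range was -0.10 to 0.52, and array weights gave -0.019. In ALA minus control the ranges were -0.095 to 0.026 for Aldh1a7, -0.32 to 0.14 for Aldh1a1, -0.046 to 0.24 for Aldh1a3, -0.057 to 0.047 for Aldh2 and -0.41 to 0.21 for Aldh3a2. In ALA and inhibitor minus inhibitor they were -0.23 to 0.29 for Aldh1a2, -0.23 to 0.012 for Aldh1a3, -0.032 to 0.17 for Aldh2 and -0.12 to 0.041 for Aldh3a2. The interaction ranged over -0.083 to 0.44 for Aldh1a2, -0.022 to 0.18 for Aldh2 and -0.25 to 0.38 for Aldh3a2. Passage 8 minus passage 6 ranged over -0.034 to 0.026 for Aldh1a7 and -0.049 to 0.37 for Aldh1a2, and passage 7 minus passage 6 over -0.077 to 0.27 for Aldh1a2, -0.052 to 0.048 for Aldh2 and -0.34 to 0.047 for Aldh3a2.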
